A study of Mus musculus with 24 samples.

Results

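Transcripts of 6 genes of hepatic fatty acid uptake and triglyceride hydrolysis (Cd36, Slc27a2, Lpl, Lipc, Angptl4 and Pparg) were followed through the livers of 24 mice. These 6 genes were a fixed list, and 5 of the 6 were among the 1999 genes (of 56748) for which read counts per mouse were used. Pparg was not among them and was followed only through the leading edges of the 9 deposited gene set tables. Livers of 6 mice, 3 males and 3 females, were sequenced in each of 4 groups, and each mouse gave 1 poly(A) library. GHR+/+ mice had an intact growth hormone receptor (GHR) and GHR-/- (Laron) mice lacked a functional one, and neither was injected. AAV-HLP-Luc and AAV-HLP-mGHR mice were GHR-/- mice that at 4 to 5 weeks of age received 1 dose of 40000000000 vector genomes of adeno-associated virus carrying luciferase or the mouse GHR. HLP is a liver-specific promoter that is always active, and the rest of the body of these hosts stayed GHR-/-. Injected mice were 30 to 31 weeks old at death and uninjected mice 21 weeks, so age and injection cannot be told apart from the group whenever injected and uninjected mice are compared.

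Long-chain fatty acids enter hepatocytes with the help of membrane proteins. CD36 is a scavenger receptor that binds and moves fatty acids, and SLC27A2 (FATP2) couples uptake to acyl-CoA formation. Lipoprotein lipase (LPL) and hepatic lipase (LIPC) act outside the cell on lipoprotein lipids, and ANGPTL4 is a secreted inhibitor of LPL. PPARG is a nuclear receptor that drives lipid storage genes in fat, with CD36 and LPL among its known targets. In the healthy adult liver LIPC is a hepatocyte product, while LPL and PPARG are abundant in adipose tissue and low in liver. Growth hormone acts on the liver through GHR, JAK2 and STAT5.

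In GRCm39 the genes lie on different chromosomes, and all 6 are protein-coding. Cd36 (ENSMUSG00000002944) lies on the minus strand of chromosome 5 from 17986432 to 18094067, and Slc27a2 (ENSMUSG00000027359) on the plus strand of chromosome 2 from 126394327 to 126430166. Lpl (ENSMUSG00000015568) spans 69284603 to 69360100 on the plus strand of chromosome 8, and Lipc (ENSMUSG00000032207) spans 70705410 to 70859508 on the minus strand of chromosome 9. Angptl4 (ENSMUSG00000002289) occupies 33992724 to 34000804 on the minus strand of chromosome 17, and Pparg (ENSMUSG00000000440) 115337675 to 115468268 on the plus strand of chromosome 6.

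Promoters of both uptake genes are printed because Cd36 differed strongly between receptor states and Slc27a2 did not pass the test. The RefSeq table of promoters on GRCm38.p6, an older build than the one used for the counts, held 7 windows for 4 of the 6 genes (Cd36, Lipc, Slc27a2 and Pparg). Each window runs from 250 bases before to 50 bases after a start site. The Cd36 window is chr5:17835847-17836146 on the minus strand and that of Slc27a2 is chr2:126552774-126553073 on the plus strand. Capitals mark the nuclear receptor half-site AGGTCA and the CCAAT box, on either strand.
Cd36: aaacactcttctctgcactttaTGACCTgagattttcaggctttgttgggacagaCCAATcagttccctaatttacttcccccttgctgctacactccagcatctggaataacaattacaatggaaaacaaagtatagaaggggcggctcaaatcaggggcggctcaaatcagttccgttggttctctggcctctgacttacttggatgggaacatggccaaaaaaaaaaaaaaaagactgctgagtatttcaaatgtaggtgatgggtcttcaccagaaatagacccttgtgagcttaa
Slc27a2: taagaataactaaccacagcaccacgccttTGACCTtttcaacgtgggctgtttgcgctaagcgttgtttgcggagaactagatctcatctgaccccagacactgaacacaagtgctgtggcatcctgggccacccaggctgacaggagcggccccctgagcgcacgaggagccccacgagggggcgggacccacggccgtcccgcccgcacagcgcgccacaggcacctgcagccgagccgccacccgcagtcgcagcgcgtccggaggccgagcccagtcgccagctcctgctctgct
The half-site, which began at -228 in Cd36 and -220 in Slc27a2, was held by 16.3% of all 32851 windows in that table. The CCAAT box at -195 of Cd36 was a letter match that 37.4% of windows shared. The STAT palindrome TTCNNNGAA, a letter pattern that 8.30% of windows held, and the TATA box TATAAA (13.6%) were searched as well and had no match in either window. These matches describe letters only.

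Counts over the 1999 genes were 26453904 to 38194053 per library (median 29715947). All 14 hepatocyte markers listed were among these genes, with summed normalized counts of 4764500 to 6973600 per library, whereas none of the 6 adipocyte markers was among them. Ghr normalized counts were 18658 to 27548 in GHR+/+, 2052 to 2653 in GHR-/-, 1416 to 3256 with AAV-HLP-Luc and 2614 to 4966 with AAV-HLP-mGHR. Igf1, the classical hepatic target of growth hormone, ranged from 17822 to 27983, from 278 to 2241, from 234 to 1194 and from 5214 to 17068 in the same order. Ghr transcripts thus overlapped between the vector groups, and Igf1 did not. A normalized count is a read count divided by a median-of-ratios size factor, and "called" means an adjusted p under 0.05 by limma-voom over all genes in hand. The limma-voom p-values rest on the spread between mice, moderated over all genes in hand and weighted by count level. A large standard error therefore need not mean that the mice varied widely.

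Cd36 was low in GHR+/+ livers and high in every GHR-/- background. Normalized counts had a lowest value, median and highest value of 934, 1480 and 3707 in GHR+/+, 7441, 9582 and 11318 in GHR-/-, 6537, 7954 and 11730 with AAV-HLP-Luc, and 6107, 10315 and 11511 with AAV-HLP-mGHR. All 6 GHR+/+ mice lay below all 18 others. The 3 GHR-/- backgrounds overlapped one another.

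GHR+/+ livers held 4.78-fold less Cd36 than GHR-/- livers (log2 fold change -2.26 ± 0.29 SE, 6 against 6 mice, limma-voom adjusted p = 0.000554), and 4.49-fold less than AAV-HLP-mGHR livers (-2.17 ± 0.32, adjusted p = 0.00341). These 2 comparisons share the GHR+/+ mice. Between the 2 vector groups (AAV-HLP-mGHR over AAV-HLP-Luc) Cd36 was not called (0.23 ± 0.18, 95% interval -0.16 to 0.63, adjusted p = 0.603), nor was it between AAV-HLP-mGHR and GHR-/- livers (-0.03 ± 0.16, interval -0.37 to 0.32). Relative to the GHR+/+ mean, Cd36 stood at 481% ± 67 (SD, n = 6) in GHR-/-, 406% ± 95 with AAV-HLP-Luc and 479% ± 110 with AAV-HLP-mGHR.

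The receptor effect and the vector effect on Cd36 were compared in a fit over all 24 libraries. The GHR+/+ against GHR-/- difference was lower than the difference between the vector groups by 2.43 ± 0.35 on the log2 scale (adjusted p = 0.000547), where 1.3% of all genes were called. Cd36 was the only 1 of the 5 counted genes called in that contrast. For Lpl the same contrast was 0.04 ± 0.86 (95% interval -1.75 to 1.83, adjusted p = 0.979), so its receptor and vector effects were not shown to differ, within a wide interval.

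Lpl, the enzyme that frees fatty acids from circulating triglyceride-rich lipoproteins, was low in GHR+/+ and AAV-HLP-mGHR livers and high in the others. Its normalized counts (lowest, median and highest) were 466, 725 and 2288 in GHR+/+, 3471, 5515 and 6937 in GHR-/-, 3995, 7117 and 7802 with AAV-HLP-Luc, and 317, 1034 and 1791 with AAV-HLP-mGHR. Neither low group overlapped either high group. Within each of these pairs the ranges overlapped.

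AAV-HLP-mGHR livers held 6.14-fold less Lpl than AAV-HLP-Luc livers (log2 fold change -2.62 ± 0.36 SE, adjusted p = 0.00464) and 5.36-fold less than GHR-/- livers (-2.42 ± 0.32, adjusted p = 0.00413). The GHR+/+ against GHR-/- difference was 5.65-fold (-2.50 ± 0.48, adjusted p = 0.00358). Between GHR+/+ and AAV-HLP-mGHR livers the difference was -0.11 ± 0.50 (95% interval -1.19 to 0.97, adjusted p = 0.911). The AAV-HLP-mGHR mean was 112% ± 51 (SD, n = 6) of the GHR+/+ mean. Female 119 of the GHR+/+ group, at 2288, lay above all AAV-HLP-mGHR mice and below all GHR-/- mice.

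Bulk liver RNA does not separate fewer cells of a type from less RNA per cell. The 4 Kupffer and macrophage markers in hand (of 15 listed) had summed normalized counts of 11775 to 17303 in GHR+/+, 11827 to 33595 in GHR-/-, 14161 to 28161 with AAV-HLP-Luc and 10993 to 35549 with AAV-HLP-mGHR. Summed counts of the 3 sinusoidal endothelial markers in hand (of 12) were 8494 to 10450, 5579 to 12538, 7877 to 14411 and 9348 to 13075. The summed levels overlapped between all 4 groups for both lists. Kupffer and macrophage medians were 14470, 19124, 24107 and 16718 in the same order, lower in the 2 groups with low Lpl. Sinusoidal endothelial medians were 9402, 10793, 9757 and 11153. The part of these cells in the Lpl difference was not tested. The 2 stellate markers in hand (of 8) gave 4902 to 14705, 8983 to 17597, 5973 to 13525 and 6697 to 15324 in the same order, and Hbb-bs, the 1 erythrocyte marker in hand of 5, gave 1827 to 3141, 2764 to 4375, 2383 to 4839 and 2393 to 4613. None of the 6 cholangiocyte or 6 muscle markers was among the genes in hand.

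**Figure D1:**
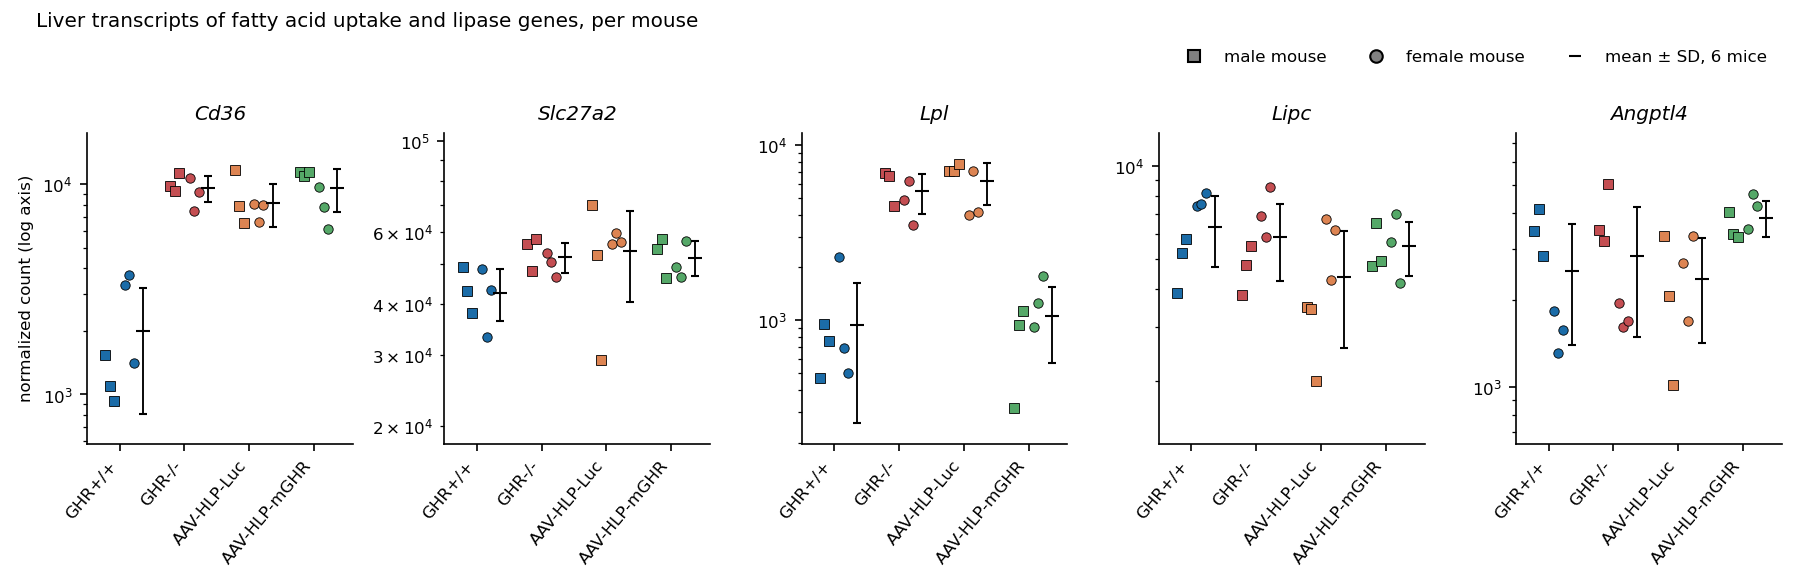
Normalized counts (log axis) of the 5 counted genes in each mouse, with males as squares, females as circles and the mean ± SD of the 6 mice of each group beside them. Cd36 in all 6 GHR+/+ mice lies below all other mice, and Lpl in the GHR+/+ and AAV-HLP-mGHR mice lies below the GHR-/- and AAV-HLP-Luc mice.

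Slc27a2 was abundant everywhere and moved little. Its normalized counts (lowest, median and highest) were 33128, 43095 and 49089 in GHR+/+, 46429, 51920 and 57610 in GHR-/-, 29033, 56257 and 69983 with AAV-HLP-Luc, and 46212, 51844 and 57648 with AAV-HLP-mGHR. GHR+/+ livers were the lowest on average and overlapped each other group. The difference from GHR-/- livers was -0.30 ± 0.11 (log2, 95% interval -0.53 to -0.07, adjusted p = 0.0551), and that from AAV-HLP-mGHR livers was -0.30 ± 0.11 (adjusted p = 0.0982). The former was called in 4 of 6 other settings, with adjusted p values between 0.0329 and 0.148. The vector groups differed by -0.01 ± 0.18 (interval -0.40 to 0.37). AAV-HLP-Luc male 005 was the lowest library of its group for Slc27a2 (29033), Lipc (2006), Angptl4 (1019) and, by a small margin, Cd36 (6537, with the next at 6588), and the highest for Lpl (7802).

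Per length, Slc27a2 was the highest of the 3 genes for which FPKM values were used. Mean FPKM of Slc27a2 was 297 ± 36.5 (SD, n = 6) in GHR+/+, 372 ± 28.9 in GHR-/-, 383 ± 102 with AAV-HLP-Luc and 374 ± 45.5 with AAV-HLP-mGHR. Cd36 FPKM was 14.9 ± 9.39, 72.1 ± 10.5, 60.5 ± 15.6 and 72.6 ± 18.4 in the same order. Lipc FPKM was 78.7 ± 24.4, 74.3 ± 23.9, 54.0 ± 22.7 and 69.4 ± 15.3. In GHR+/+ livers Lipc, at 44.8 to 108, therefore lay above Cd36, at 6.72 to 29.3, in FPKM, while in the other groups the ranges of both overlapped.

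Lipc, which hydrolyses lipids of remnant and high-density lipoproteins, was not called in any of the 5 comparisons of groups with the sexes pooled. Its normalized counts (lowest, median and highest) were 3876, 6603 and 8196 in GHR+/+, 3805, 5678 and 8546 in GHR-/-, 2006, 3878 and 6752 with AAV-HLP-Luc, and 4165, 5291 and 6988 with AAV-HLP-mGHR. AAV-HLP-Luc had the lowest mean, and its range overlapped every other group. GHR+/+ and AAV-HLP-Luc livers, with means of 6337 and 4359, were not compared by a test. GHR+/+ exceeded GHR-/- by 0.10 ± 0.22 (log2, 95% interval -0.37 to 0.57, adjusted p = 0.763), and AAV-HLP-mGHR exceeded AAV-HLP-Luc by 0.44 ± 0.27 (interval -0.14 to 1.01, adjusted p = 0.484).

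Angptl4, the inhibitor of lipoprotein lipase, was highest on average in AAV-HLP-mGHR livers. Its normalized counts (lowest, median and highest) were 1313, 2329 and 4126 in GHR+/+, 1613, 2573 and 5043 in GHR-/-, 1019, 2373 and 3339 with AAV-HLP-Luc, and 3292, 3765 and 4639 with AAV-HLP-mGHR. All groups overlapped, although only 2 AAV-HLP-Luc mice (3324 and 3339) reached the lowest AAV-HLP-mGHR value. GHR+/+ livers held 1.77-fold less than AAV-HLP-mGHR livers (-0.82 ± 0.24, adjusted p = 0.0493). That call held in 1 of 6 other settings and in 2 of the 12 fits that left out 1 mouse, with adjusted p between 0.0183 and 0.119 in the latter.

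Against AAV-HLP-Luc livers, Angptl4 in AAV-HLP-mGHR livers was 0.77 ± 0.24 higher (95% interval 0.26 to 1.29), with an adjusted p of 0.139. An exact 2-sided permutation test of that single gene over the 12 mice gave p = 0.00649 unadjusted. Adjusted by Benjamini-Hochberg over the 25 such tests, the permutation p was 0.0271. The limma-voom value was adjusted over all genes in hand, so the 2 adjusted values cover different numbers of tests. The same exact permutation test gave its smallest possible p, 0.00216, for Cd36 in GHR+/+ against GHR-/- and against AAV-HLP-mGHR livers, and for Lpl between GHR+/+ and GHR-/- livers and between AAV-HLP-mGHR livers and those of either other GHR-/- background.

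The share of all genes that moved gives the background for these calls. In GHR+/+ against GHR-/- livers 492 of the 1999 genes (24.6%) were called, and 2 of the 5 counted genes (Cd36 and Lpl). In GHR+/+ against AAV-HLP-mGHR livers 11.2% of genes were called, and 2 of the 5 (Cd36 and Angptl4). The vector comparison called 31 genes (1.55%) and 1 of the 5 (Lpl), and AAV-HLP-mGHR against GHR-/- called 46 (2.3%) and again 1 (Lpl). Groups did not overlap for 13.8%, 6.2%, 2.35% and 2.65% of all genes in these comparisons, in the order given, and for Cd36 and Lpl, for Cd36, for Lpl and for Lpl among the 5. No such share was computed for GHR+/+ against AAV-HLP-Luc livers. The lack of overlap of Cd36 and Lpl in that pair therefore describes these mice only.

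None of the 5 genes was called between the luciferase vector group and uninjected GHR-/- mice. In the comparison of AAV-HLP-Luc mice with uninjected GHR-/- mice, 0 of 1998 genes (0%) passed in limma-voom, 69 genes had an unadjusted p under 0.05, and 0.1% of genes had groups that did not overlap. Cd36 differed by -0.26 ± 0.15 (95% interval -0.57 to 0.06) and Lpl by 0.19 ± 0.21 (interval -0.27 to 0.65). Lipc gave the largest estimate of the 5, -0.52 ± 0.28 (interval -1.13 to 0.09). By sex, mean counts in AAV-HLP-Luc males were 0.547 times those of GHR-/- males for Angptl4 and 0.636 times for Lipc, and AAV-HLP-Luc females held 1.47 times the Angptl4 of GHR-/- females. These ratios by sex rest on 3 against 3 mice and were not tested. These 2 groups also differed in age.

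**Figure D2:**
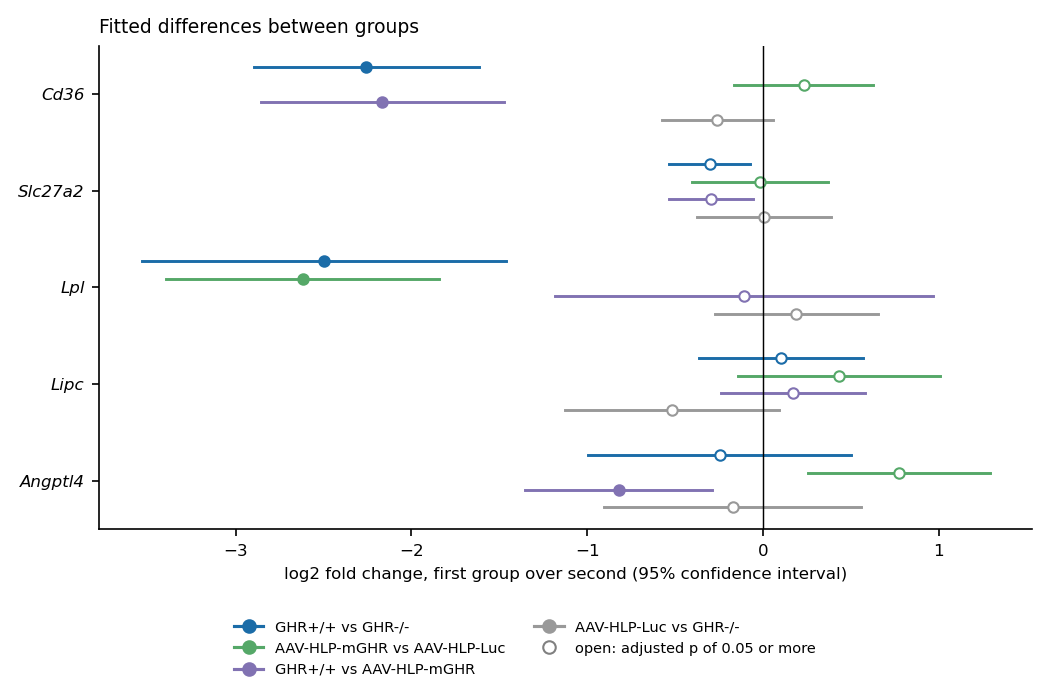
Fitted log2 fold changes with 95% confidence intervals of the 5 counted genes in 4 comparisons between groups, with filled points for an adjusted p under 0.05. Cd36 is displaced in both comparisons that involve GHR+/+ livers (-2.26 and -2.17) and not in the vector comparison (0.23), whereas Lpl is displaced in the vector comparison (-2.62) and not between GHR+/+ and AAV-HLP-mGHR livers (-0.11).

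The sexes were compared next, since growth hormone is secreted in different temporal patterns in male and female mice. The share of all genes whose groups did not overlap was computed for the pooled comparisons only. A lack of overlap among the few mice of a sex therefore describes those mice and is not by itself evidence of a difference. In males, Cd36 counts were 934, 1098 and 1549 in GHR+/+, 9317, 9847 and 11318 in GHR-/-, 6537, 7920 and 11730 with AAV-HLP-Luc, and 10961, 11502 and 11511 with AAV-HLP-mGHR. In females they were 1411, 3322 and 3707, then 7441, 9158 and 10685, then 6588, 7988 and 8088, and 6107, 7846 and 9670. GHR+/+ males and females overlapped, and in each sex every GHR+/+ mouse lay below every other mouse.

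GHR+/+ males held 8.67-fold less Cd36 than GHR-/- males (log2 -3.12 ± 0.23, adjusted p = 0.000222) where 20.1% of genes were called, and GHR+/+ females 3.45-fold less than GHR-/- females (-1.79 ± 0.36, adjusted p = 0.0371) where 5.71% were. The female call was kept in 1 of the 6 fits that left out a mouse (estimates -2.01 to -1.36, adjusted p 0.0159 to 0.141). The difference between the sexes in this effect was -1.32 ± 0.72 (95% interval -2.91 to 0.27, adjusted p = 0.497), so the larger male estimate was not shown to differ. None of the 5 genes was called in that contrast, and 0.85% of all genes were. Without GHR+/+ female 121 (1411, the lowest GHR+/+ female) the contrast for Cd36 was called, at -1.76 (adjusted p = 0.0268). That was the only 1 of 12 fits without 1 mouse to call it (adjusted p up to 0.626), and 0 of 5 other settings did.

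Against AAV-HLP-mGHR livers of the same sex, Cd36 was 9.69-fold lower in GHR+/+ males (-3.28 ± 0.19, adjusted p = 0.000186), with 22.2% of genes called. In females the estimate was -1.56 ± 0.40 (adjusted p = 0.134), with 0.701% of genes called. AAV-HLP-mGHR males reached 949% ± 26.4 (SD, n = 3) of the mean of GHR+/+ males, and the females 280% ± 63.3 of that of GHR+/+ females.

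Lpl fell after AAV-HLP-mGHR in males, from 7117, 7117 and 7802 in AAV-HLP-Luc to 317, 937 and 1131, a 10.3-fold difference (-3.37 ± 0.41, adjusted p = 0.0391) where 0.35% of genes were called. This call was lost whichever of the 6 males was left out, with estimates from -3.71 to -2.84 and adjusted p from 0.0852 to 0.187. In females the counts were 3995, 4154 and 7132 with AAV-HLP-Luc and 912, 1251 and 1791 with AAV-HLP-mGHR. The groups did not overlap in either sex. The female estimate was -2.0 ± 0.34 (adjusted p = 0.0865), with 0.45% of genes called. The male minus female difference of the vector effect was -1.38 ± 0.61 (95% interval -2.72 to -0.04, unadjusted p = 0.0440, adjusted p = 0.701). In that contrast limma-voom called 0 genes (0%), and 130 genes had an unadjusted p under 0.05.

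Lpl counts in uninjected males were 466, 758 and 955 in GHR+/+ and 4494, 6601 and 6937 in GHR-/- livers, an 8.51-fold difference (-3.09 ± 0.41, adjusted p = 0.00335). In females they were 500, 692 and 2288 in GHR+/+ and 3471, 4814 and 6216 in GHR-/- livers, and the estimate of -2.24 ± 0.55 was not called (adjusted p = 0.0660). In both sexes the ranges were apart.

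Angptl4 was higher in the males than in the females sampled in both uninjected groups, and this was called in GHR+/+ livers only. Its counts were 2827, 3452 and 4126 in GHR+/+ males and 1313, 1573 and 1831 in GHR+/+ females, and 3196, 3491 and 5043 in GHR-/- males and 1613, 1685 and 1950 in GHR-/- females. Males lay above females in both genotypes, with no overlap. The male excess was 2.16-fold in GHR+/+ livers (1.11 ± 0.20, adjusted p = 0.0216), where 13.2% of genes were called (kept in 3 of 6 fits without 1 mouse), and 2.20-fold in GHR-/- livers (1.14 ± 0.20, adjusted p = 0.148), where 0.0501% were. The difference between these effects was -0.03 ± 0.31 (95% interval -0.72 to 0.66).

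In both injected groups the sexes overlapped. AAV-HLP-mGHR livers held 3292, 3373 and 4016 counts of Angptl4 in males and 3514, 4232 and 4639 in females (male minus female -0.21 ± 0.14, with 0.05% of genes called), and AAV-HLP-Luc livers 1019, 2063 and 3339 in males and 1695, 2683 and 3324 in females (-0.40 ± 0.44, with 0.1% called). The GHR+/+ sex difference exceeded that of AAV-HLP-mGHR livers by 1.32 ± 0.25 (adjusted p = 0.0214), in a contrast added after the values by sex had been seen and in which 3.15% of genes were called. This call was kept in 4 of 5 other settings, with the exception of one fit over all 24 libraries (adjusted p = 0.0831). It was kept in 10 of 12 fits without 1 mouse, and lost without AAV-HLP-mGHR male 008 (adjusted p = 0.0595) or female 022 (0.0508). The same contrast with GHR-/- in place of GHR+/+ was 1.35 ± 0.25 (adjusted p = 0.462). There limma-voom called 0 genes (0%), and 101 genes had an unadjusted p under 0.05. That contrast, too, was added after the values by sex had been seen, so the rank of Angptl4 in it is no support. GHR+/+ females held 2.60-fold less Angptl4 than AAV-HLP-mGHR females (-1.38 ± 0.17, adjusted p = 0.0359, kept in 1 of 6 fits without 1 mouse), and in males the difference was -0.05 ± 0.16 (interval -0.43 to 0.33).

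Lipc showed the opposite sex direction. Its counts were 3876, 5206 and 5792 in GHR+/+ males and 7414, 7539 and 8196 in GHR+/+ females, without overlap (-0.66 ± 0.16, adjusted p = 0.0492, kept in 1 of 6 fits without 1 mouse). Estimates in the same direction were obtained in GHR-/- (-0.60 ± 0.19, adjusted p = 0.522) and AAV-HLP-Luc livers (-0.95 ± 0.28, adjusted p = 0.294), and neither was called. Males lay below females without overlap in both groups, which was not set against a share of all genes. In AAV-HLP-mGHR livers males (4743, 4925 and 6526) and females (4165, 5658 and 6988) overlapped (-0.04 ± 0.22, interval -0.56 to 0.48). The GHR+/+ sex difference was lower than that of AAV-HLP-mGHR livers by 0.62 ± 0.29 (interval -1.27 to 0.02, adjusted p = 0.223), so a change in it was not shown.

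**Figure D3:**
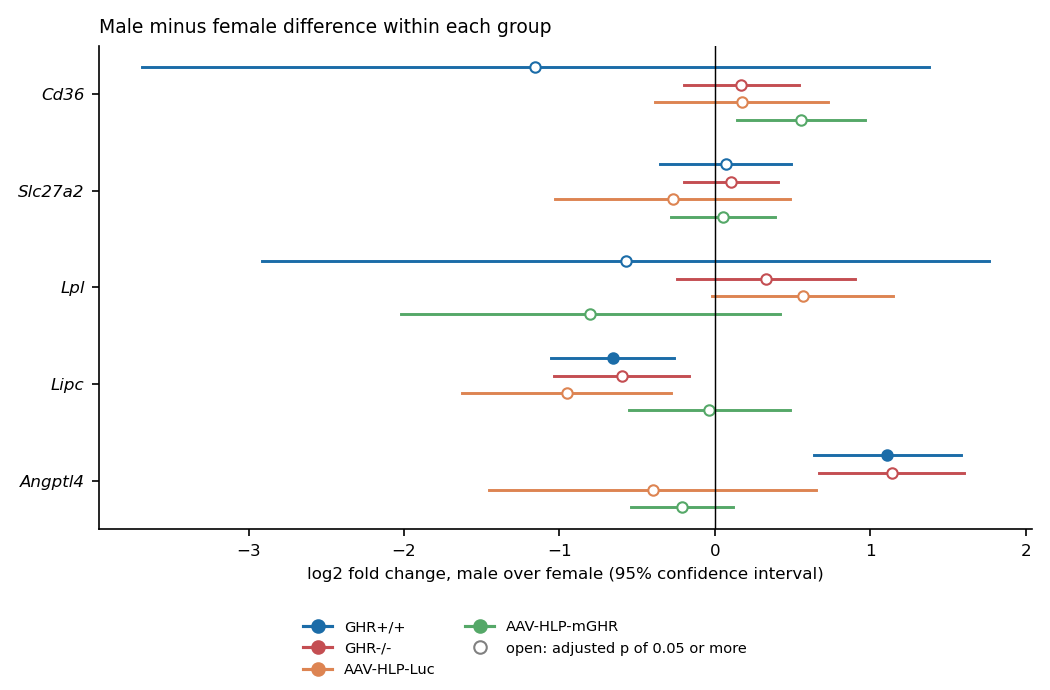
Fitted male over female log2 fold changes with 95% confidence intervals within each of the 4 groups, 3 males against 3 females, with filled points for an adjusted p under 0.05. The Angptl4 estimate lies near 1 in both uninjected groups (1.11 and 1.14). In both injected groups it is below 0 (-0.40 and -0.21) with intervals that include 0. Lipc estimates lie below 0 in all 4 groups, with an interval that includes 0 in AAV-HLP-mGHR livers.

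Pparg was read through gene set tables. Each deposited table scores 16005 to 16047 gene sets along the genes ranked for 1 comparison. The leading edge of a set is the part of its genes that built up the score, by higher expression in the first group named for a positive score and in the second for a negative one. Pparg was in a leading edge of 552 sets in at least 1 table. For GHR+/+ against GHR-/- livers, 304 sets with a negative score and 0 with a positive one had it in their leading edge, and for GHR+/+ against AAV-HLP-mGHR livers 462 and 0 did. The vector comparison (AAV-HLP-mGHR against the luciferase group) gave 204 and 0, and AAV-HLP-Luc against GHR-/- gave 269 and 0. In the study's own tests of the vector comparison Pparg was not significant with the sexes pooled or in males, and was lower in females. The set counts therefore do not show a fall of Pparg in the pooled comparison.

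Every Pparg leading edge in the 8 tables that listed it was thus on the negative side. By sex, the GHR+/+ against GHR-/- tables gave 241 sets in males and 364 in females, and those of the vector comparison gave 4 in males and 190 in females. The male against female table of GHR+/+ livers gave 0 sets of either sign. Being on the negative side alone was common: 44.2% of the 11512 genes in any leading edge of the GHR+/+ against GHR-/- table were so, 47.5% of 12153 in the vector table and 47.1% of 11353 in the GHR+/+ against AAV-HLP-mGHR table. Sets share genes and tables share mice, so set counts are not replicates and were not tested.

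Among the counted genes, the leading edges can be set beside the counts. Cd36 had 263 negative sets in GHR+/+ against GHR-/-, 328 in GHR+/+ against AAV-HLP-mGHR and 186 positive sets in the vector table. In the vector tables by sex it had 182 positive sets in males, and 7 positive and 1 negative in females. Lpl had 150 negative sets in GHR+/+ against GHR-/-, 113 in the vector table and 0 of either sign in GHR+/+ against AAV-HLP-mGHR. Cd36 and Pparg therefore stood on opposite sides in the pooled vector table and on the same side in the comparisons with GHR+/+ livers. By sex, Cd36 was listed mostly in males, and Pparg mostly in females (190 negative sets, against 4 in males). Cd36 was not called between the vector groups by its counts (limma-voom adjusted p = 0.603), so an opposite response of the 2 genes was not shown.

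Angptl4 had 55 positive sets in the vector table and 48 negative in GHR+/+ against AAV-HLP-mGHR, and 29 positive sets in male against female GHR+/+ livers. Lipc had 87 positive sets in the vector table, 85 in its male version and 0 of either sign in its female version, and 87 negative sets in male against female GHR+/+ livers. Slc27a2 had 67 and 86 negative sets in the comparisons of GHR+/+ with GHR-/- and with AAV-HLP-mGHR livers, and 0 in the vector table.

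Sets that name these functions can be read in the same way. The lipid storage set (GO biological process) had Cd36, Lpl and Pparg in its leading edge, on the negative side, in GHR+/+ against GHR-/- livers, where 22 of its 85 genes were in that edge. In GHR+/+ against AAV-HLP-mGHR livers Cd36 and Pparg were in its negative leading edge. Its score was negative in the vector table (14 of 84 genes) and in the female vector table (16 of 85), with Lpl and Pparg in the leading edge of both. In the male vector table its score was positive, with Cd36 in the leading edge (24 of 80 genes). The fatty acid transport set had Cd36, Slc27a2 and Pparg in its negative leading edge in both comparisons with GHR+/+ livers, with 25 of 87 and 26 of 81 genes. The set for regulation of lipoprotein lipase activity had Angptl4 in its positive leading edge in the vector table, with 5 of 16 genes.

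**Figure D4:**
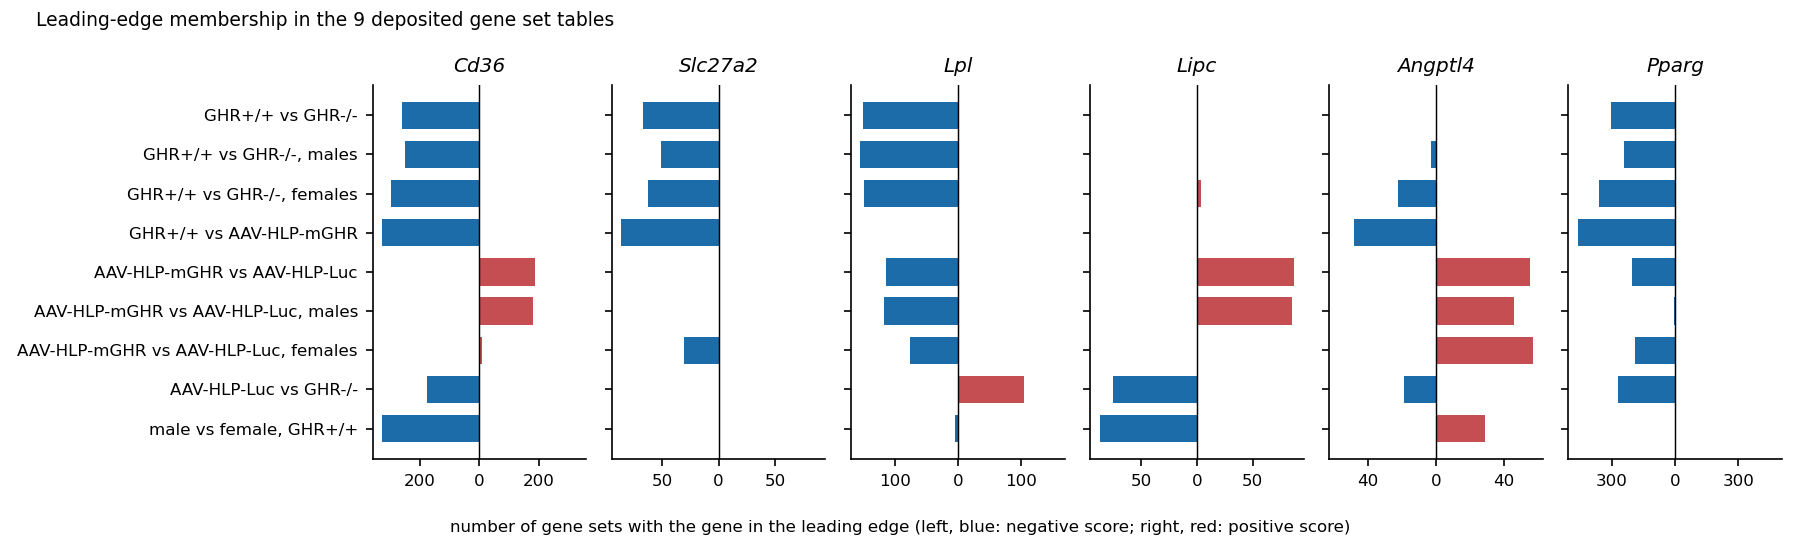
Number of gene sets that list each of the 6 genes in their leading edge in each of the 9 deposited tables, with sets of negative score to the left and of positive score to the right of 0 (the axes differ between genes). Pparg lies to the left in the 8 tables that list it. Cd36 lies to the right in the pooled and male vector tables (186 and 182 sets) and has few sets in the female one. In the comparisons with GHR+/+ livers Cd36 lies to the left.

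Scd2, a desaturase that the study names beside Cd36 and Pparg, had normalized counts of 225 to 1087 in GHR+/+, 3302 to 7264 in GHR-/-, 2875 to 35556 with AAV-HLP-Luc and 767 to 2819 with AAV-HLP-mGHR. Its AAV-HLP-mGHR mice lay below all GHR-/- and AAV-HLP-Luc mice (against GHR-/-, -1.82 ± 0.32, adjusted p = 0.0100). The difference from AAV-HLP-Luc livers was not called (-2.11 ± 0.61, adjusted p = 0.118). Scd2 was lower in GHR+/+ than in GHR-/- livers (-3.70 ± 1.1, adjusted p = 0.0272) and not called between GHR+/+ and AAV-HLP-mGHR livers (-1.82 ± 2.09, adjusted p = 0.581). That pooled estimate had a large standard error, so the lack of a call does not show a return to the GHR+/+ level. The AAV-HLP-mGHR mean was 408% ± 207 (SD, n = 6) of the GHR+/+ mean. By the study's own pooled tests, Scd2 was significantly lower in GHR+/+ than in AAV-HLP-mGHR livers. Those tests also found it significantly lower in AAV-HLP-mGHR than in AAV-HLP-Luc livers, so neither limma-voom result without a call matches them. In males, counts were 225 to 246 in GHR+/+ and 1343 to 2819 with AAV-HLP-mGHR (-3.23 ± 0.96, limma-voom adjusted p = 0.0572). In females, 325 to 1087 and 767 to 1926 overlapped. The highest value, 35556, belonged to AAV-HLP-Luc male 005. Ppargc1a, a coactivator of PPARG and the other gene named there, was read through leading edges alone, with 188 negative sets in GHR+/+ against GHR-/-, 292 in GHR+/+ against AAV-HLP-mGHR and 108 in the vector table, and 0 positive sets in each. The study's own test of Ppargc1a between the vector groups was not significant.

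Genes of the surrounding pathway were taken from 7 lists of lipid genes, which held 88 measured genes beside the 5. In GHR+/+ against GHR-/- livers 7 of the 88 were higher and 22 lower (33% called, against 24.6% of all genes). The list of PPAR alpha targets and fatty acid oxidation enzymes had 31 measured genes, of which 15 were lower, 0 higher and 16 not called, with a median log2 fold change of -0.38 against 0.01 over all genes. Its strongest falls were in Cyp4a14 (-3.92 ± 1.30, adjusted p = 0.0440), Cyp4a10 (-2.91 ± 0.96, adjusted p = 0.0430) and Vnn1 (-2.05 ± 0.43, adjusted p = 0.00558), all textbook PPAR alpha targets. Acaa1b, a peroxisomal thiolase, fell by 1.16 ± 0.22 (adjusted p = 0.00336). Cyp4a10 and Cyp4a14 are close paralogs, as are Ces3a and Ces3b, so reads may be divided between them with error.

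Among genes of uptake, binding and activation, 8 were measured beside Cd36 and Slc27a2. Fabp1, the abundant fatty acid binding protein of liver, was higher in GHR+/+ than in GHR-/- livers (0.46 ± 0.12, adjusted p = 0.0174), and Slc27a5, a bile acid and fatty acid CoA ligase, was lower (-0.43 ± 0.07, adjusted p = 0.00135). The other 6 were not called. No gene of this list was called in the vector comparison.

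Of the 11 measured extracellular lipases and regulators beside Lpl, Lipc and Angptl4, 1 was higher and 2 lower in GHR+/+ than in GHR-/- livers. Apoa4, an apolipoprotein of triglyceride-rich particles, was higher (1.47 ± 0.27, adjusted p = 0.00269), and it was also higher in AAV-HLP-mGHR than in AAV-HLP-Luc livers (1.23 ± 0.20, adjusted p = 0.00846), with mean normalized counts of 7227 ± 1835 (SD, n = 6) and 3112 ± 937. Apoc1, which inhibits LPL, was lower (-0.65 ± 0.14, adjusted p = 0.00574), as was Pcsk6, a protein convertase (-0.37 ± 0.12, adjusted p = 0.0410).

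Of 16 measured intracellular lipases and esterases, 4 were higher and 2 lower in GHR+/+ than in GHR-/- livers. The largest were the carboxylesterases Ces3b (4.32 ± 0.95, adjusted p = 0.00663) and Ces3a (3.49 ± 0.51, adjusted p = 0.00105), and Pnpla7, a lysophospholipase, followed (0.84 ± 0.14, adjusted p = 0.00177), while Ces1g fell (-0.75 ± 0.20, adjusted p = 0.0164). Ces3a was also higher in AAV-HLP-mGHR than in AAV-HLP-Luc livers (1.57 ± 0.28, adjusted p = 0.0124), the only 1 of the 16 called there.

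Of 6 lipoprotein receptor genes, Lsr was higher (0.85 ± 0.11, adjusted p = 0.000554) and Scarb1, the high-density lipoprotein receptor, lower (-0.69 ± 0.14, adjusted p = 0.00459) in GHR+/+ than in GHR-/- livers. Of 11 lipid droplet and triglyceride synthesis genes only Hsd17b11, a lipid droplet protein, was called (-0.67 ± 0.15, adjusted p = 0.00739), and the median log2 fold change of the 5 lipoprotein assembly genes, none called, was 0.11.

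In the vector comparison, 3 of the 88 genes were higher and 0 lower (3.41% called, against 1.55% of all genes), namely Apoa4, Ces3a and Acot4, a peroxisomal acyl-CoA thioesterase (1.43 ± 0.31, adjusted p = 0.0372). Lpl was the only gene of these lists called lower. In GHR+/+ against AAV-HLP-mGHR livers 7 of the 88 were higher and 13 lower (22.7%), and 10 of the 13 were in the PPAR alpha and oxidation list, among them Vnn1 (-2.11 ± 0.47) and Ppara itself (-0.75 ± 0.10). For AAV-HLP-mGHR against GHR-/- 3 were higher and 0 lower, again Apoa4, Ces3a and Acot4.

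**Figure D5:**
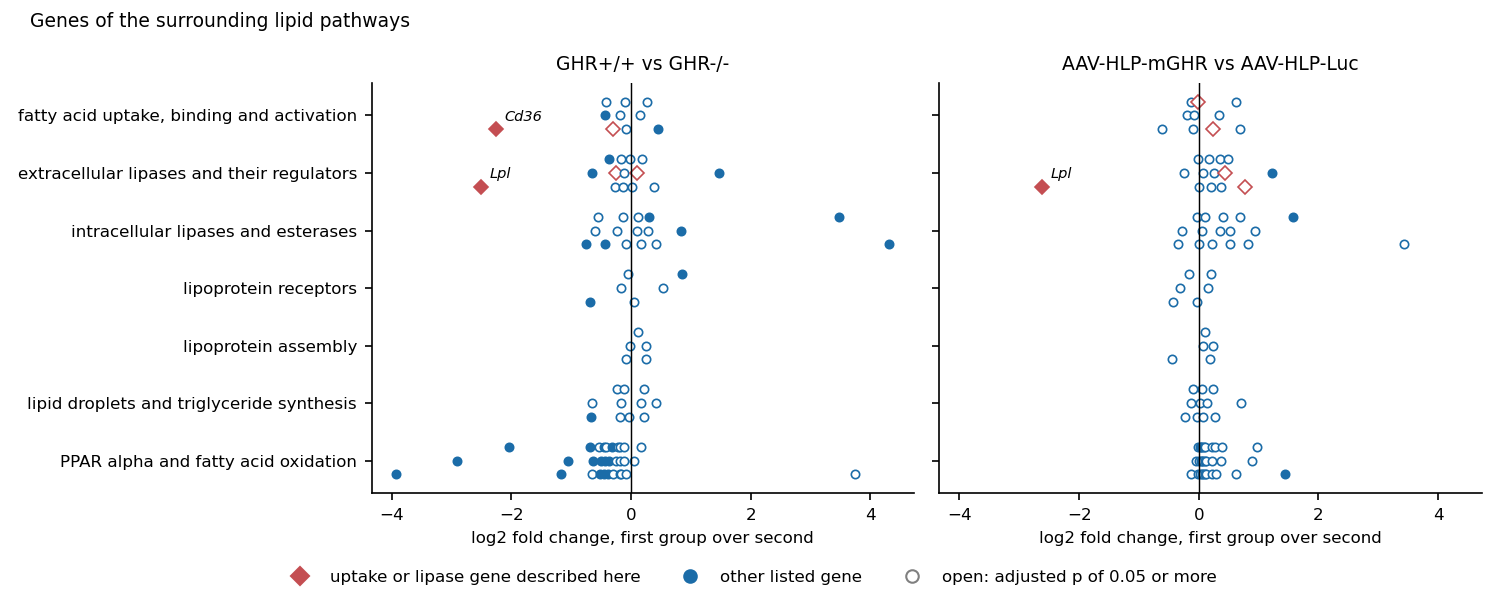
Fitted log2 fold changes of the measured genes of 7 lipid gene lists in GHR+/+ against GHR-/- livers (left) and AAV-HLP-mGHR against AAV-HLP-Luc livers (right), with diamonds for the uptake and lipase genes and filled symbols for an adjusted p under 0.05. Lpl is the gene farthest to the left on the right-hand side (-2.62), and 15 filled points of the oxidation list lie below 0 on the left-hand side.

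The genes whose levels ran most like those of the 5 differed from gene to gene. Over the 24 libraries, Cd36 ran closest to Sult2a5 (Pearson r of log2 normalized counts 0.961), Suclg2 (0.957) and Sult2a3 (0.942). Sult2a5 had mean normalized counts of 67.1 in GHR+/+, 4938 in GHR-/-, 3511 with AAV-HLP-Luc and 3398 with AAV-HLP-mGHR, in the pattern of Cd36, and it is a paralog of Sult2a3, so reads may be divided between them with error.

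Lpl ran closest to Igfbp2 (0.858), Slc25a22 (0.836) and Igfbp1 (0.815), of which Igfbp2 and Igfbp1 encode circulating binding proteins of insulin-like growth factors. Igfbp2 had means of 12672, 40993, 50388 and 21418 in the same order of groups. Angptl4 ran with Slc25a47 (0.843), a mitochondrial carrier of hepatocytes, then Ormdl3 (0.741) and Pank1 (0.684). Lipc ran with Slc10a1 (0.840), the bile acid uptake transporter, then Eif4b (0.839) and Pccb (0.820), and Slc27a2 with Decr2 (0.851) and Hadhb (0.820), enzymes of fatty acid oxidation. Between the members themselves the highest values were 0.495 (Cd36 and Lpl) and 0.522 (Angptl4 and Slc27a2). These values describe libraries that fall into 4 groups and share depth scaling, and they carry no test.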

How the data were processed

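The authors sequenced stranded poly(A) libraries of mouse liver, cleaned reads with fastp 0.23.1, aligned them to mm39 (Ensembl release 107) using Hisat2 and obtained gene counts from featureCounts 1.5.0-p3. The authors tested groups with DESeq2. The statistic that ranked genes for their gene set tables is not given in the sources used here. Of the deposited tables, the sign of each normalized enrichment score, each set's size and its leading-edge genes were used, and the authors' p-values and score values were neither used nor printed.

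Counts and FPKM per mouse, made by the authors, came from supplementary tables held in part (1999 and 1301 of 56748 genes, lowest mean count 1123), so shares of called genes cover abundant genes only. All per-sample columns were used (0 were left out). Because no complete count table was in hand, limma 3.58.1 (voom, R 4.3.3) on median-of-ratios scaled counts was used, each comparison on its own libraries, sexes pooled as in the study's design, with p-values adjusted by Benjamini-Hochberg over all genes in hand and a threshold of 0.05. Sex contrasts used cell means. Single genes were compared by exact 2-sided permutation of log2(normalized count + 1), where 6 against 6 mice allow no p under 0.00216.

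On simulated counts with 200 of 1999 genes changed, 100% of 2-fold changes were recovered in the GHR+/+ against GHR-/- and vector comparisons, 57% for the sex by receptor contrast and 76% for the sex by vector contrast. The simulation gave every gene the same dispersion and held no outlying mouse. These shares therefore check the code and do not bound the changes missed in the real data. Lpl in females of the vector comparison, at -2.0 on the log2 scale, was not called. Symbols and coordinates came from GENCODE M39 on GRCm39, which is mm39. Other steps ran in Python 3.11.15 (scipy 1.17.1, pandas 2.3.3, numpy 2.4.6), and matplotlib 3.10.9 drew the plots.

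The genes, lists and tests were chosen with earlier results of these data known. The named genes are the 6 listed ones, the 3 most correlated genes of each, up to 4 called genes with the largest changes per list and comparison, the check genes Ghr and Igf1, and Scd2 and Ppargc1a. Aadac, Pnpla2 and other genes past these limits are counted and not named, except Ppara, which was named after its value was seen. A gene that this rule names is not reported here. Replicate numbers are animal numbers that no groups share.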

Additional observations from a re-analysis of the deposited data

Results flagged for a closer look

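Cd36 in AAV-HLP-Luc male 001, at 11730 normalized counts, lay far above the rest of its group (6537 to 8088). Lpl in GHR+/+ female 119, at 2288, lay far above the rest of its group (466 to 955). The gap was 0.701 of the group's range for the former and 0.731 for the latter, above the limit of 0.625 for 6 samples, in 20 groups examined, and chance alone marks about 1 in 20 groups. Without that female the GHR+/+ against GHR-/- difference of Lpl was still called, as it was in all 12 fits that left out 1 mouse, with log2 fold changes from -3.06 to -2.23.

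The receptor effect on Cd36 differed from its vector effect by -2.43 on the log2 scale (adjusted p = 0.000547, limma-voom over 24 libraries), with GHR+/+ lower than GHR-/- in 6 of 6 mice and AAV-HLP-mGHR overlapping AAV-HLP-Luc. The sex difference of Angptl4 was larger in GHR+/+ than in AAV-HLP-mGHR livers by 1.32 on the log2 scale (adjusted p = 0.0214, limma-voom), in a contrast added after the values by sex had been seen. The call was lost in one fit over all 24 libraries (adjusted p = 0.0831) and kept in the other 4 settings, and it was kept in 10 of 12 fits without 1 mouse (lost without AAV-HLP-mGHR male 008 or female 022, adjusted p up to 0.0595). The 3 GHR+/+ males lay above the 3 GHR+/+ females, while the AAV-HLP-mGHR sexes overlapped. That separation was not set against a share of all genes. AAV-HLP-mGHR mice were also older than GHR+/+ mice and injected, and the part of age or injection cannot be told apart.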

How the results depend on the processing

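Of the 5 counted genes, 2 (Cd36 and Angptl4) were called in GHR+/+ against AAV-HLP-mGHR livers as reported, and 1 (Cd36) under limma-trend, with at least 10 counts in every library, with library totals from the FPKM table, in one fit over all 24 libraries and with sex as a covariate. Leaving out 1 mouse gave 1 to 2. The fit over all 24 libraries gave 2 (Cd36 and Lpl, against 1) for GHR+/+ against GHR-/- females, 1 (Lpl, against 0) for the vector comparison in females, 2 (Cd36 and Angptl4, against 1) for GHR+/+ against AAV-HLP-mGHR females, 1 (Angptl4, against 2) for the sexes in GHR+/+, 1 (Lipc, against 0) for the sexes in AAV-HLP-Luc, and 0 (against 1) for the added contrast of the sex differences in GHR+/+ and AAV-HLP-mGHR livers. Library totals from the FPKM table, an alternative added after the data were seen, also gave 1 (Lpl, against 0) for the vector comparison in females.

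Leaving out 1 mouse gave 0 to 0 for the vector comparison in males (1 as reported), 0 to 1 for GHR+/+ against GHR-/- females, 0 to 1 for GHR+/+ against AAV-HLP-mGHR females, 0 to 2 for the sexes in GHR+/+, 0 to 1 for the sex by receptor contrast and 0 to 2 for the added contrast, where the 2 came without GHR+/+ female 121. For Cd36 and Lpl in the pooled comparisons the calls were kept in all 6 other settings and all 12 fits without 1 mouse. Over 1485 refits of the fold changes of the 5 genes, 1428 kept their side of the threshold, 43 lost and 14 gained a call. The sign changed in 110 of them, in each case with no call in either fit. Library totals in place of size factors put the median of all genes at -0.18 in the sexes of AAV-HLP-Luc and at 0.14 in the sex by vector contrast. The cause of these shifts was not tested. No paired analysis was possible because the groups share no replicate numbers. With 3 mice a sex, and counts of abundant genes only, small differences were not detectable.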
